A study of Mus musculus with 16 samples.

Results

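The response of wild-type (WT) mouse skin to ultraviolet B (UVB) was described from 8 of the study's 16 RNA-seq libraries of whole dorsal skin. The 8 libraries were chosen by their labels alone: 4 came from WT skin given UVB 3 times and 4 from WT skin with no UVB. All 16 samples were labelled male, 8 weeks of age and in telogen, when hair follicles rest. The other 8 samples carried a knockout of Tnfrsf1a and Tnfrsf1b, the genes of both receptors for tumour necrosis factor (TNF), with 4 UVB and 4 control libraries. They entered the fit only to share its estimate of spread and to supply a comparison between genotypes. The UVB dose, the interval between exposures, the time from the last exposure to collection and the mouse strain were not given in the sources used here. Reads were counted per gene on the strand of the transcript, and 17531 of 55359 listed genes had enough reads to be tested. Whether each library came from its own animal is not stated in the labels, so p-values measure only the spread between these libraries, which may be technical.

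UVB is absorbed by DNA in the upper layers of the skin, where it joins neighbouring pyrimidines, and the damaged keratinocytes arrest, repair or die, largely under the control of p53. In the days that follow, surviving basal keratinocytes divide, the epidermis thickens, and cells moving outwards build the cornified layer from keratins, filaggrin, envelope proteins cross-linked by transglutaminases, and ceramide-rich lipids. Whole skin also holds hair follicles, sebaceous glands, nerves, vessels, immune cells, fat and muscle. In such bulk tissue, fewer cells of a type and less RNA per cell cannot be told apart.

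The 8 WT libraries held 15644375 to 22126778 reads in genes. The leading principal component of log2 CPM (reads of a gene per 1000000 counted, with library sizes scaled by TMM, which balances the libraries over most genes) held 62.8% of the variance and separated the UVB libraries from the controls without overlap. A few libraries stood apart at particular genes. WT UVB library 2 held more hair transcripts than the other UVB libraries, and control libraries 1 and 2 held more than controls 3 and 4. Control library 3 was low in the muscle myosin Myh4, at 6374, 6273, 947 and 5237 CPM in the 4 controls. The neighbouring genes Skint3, Skint4 and Skint9 were near 0 in UVB libraries 1, 2 and 4 and not in UVB library 3.

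With a threshold of 0.05 on the adjusted p, 3290 genes (18.8% of those tested) differed between UVB and control skin. Of these, 1782 were higher after UVB (10.2%) and 1508 lower (8.6%). The change exceeded 2-fold for 506 of the higher and 423 of the lower genes, and 4-fold for 147 and 207. The 2 groups did not overlap in CPM for 28.2% of all genes tested, and for 3017 of the 3290 called genes. Genes called higher took 10.7% of all reads in control skin and 18.5% in UVB skin, while genes called lower took 8.08% and 4.88%. When libraries were scaled by their totals alone, the median of all genes moved from -0.03 to -0.12 on the log2 scale and the split became 1281 higher and 2463 lower. Called counts fell to 2039 without control library 1 and to 2147 without UVB library 3, against 3290 with all libraries.

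**Figure D1:**
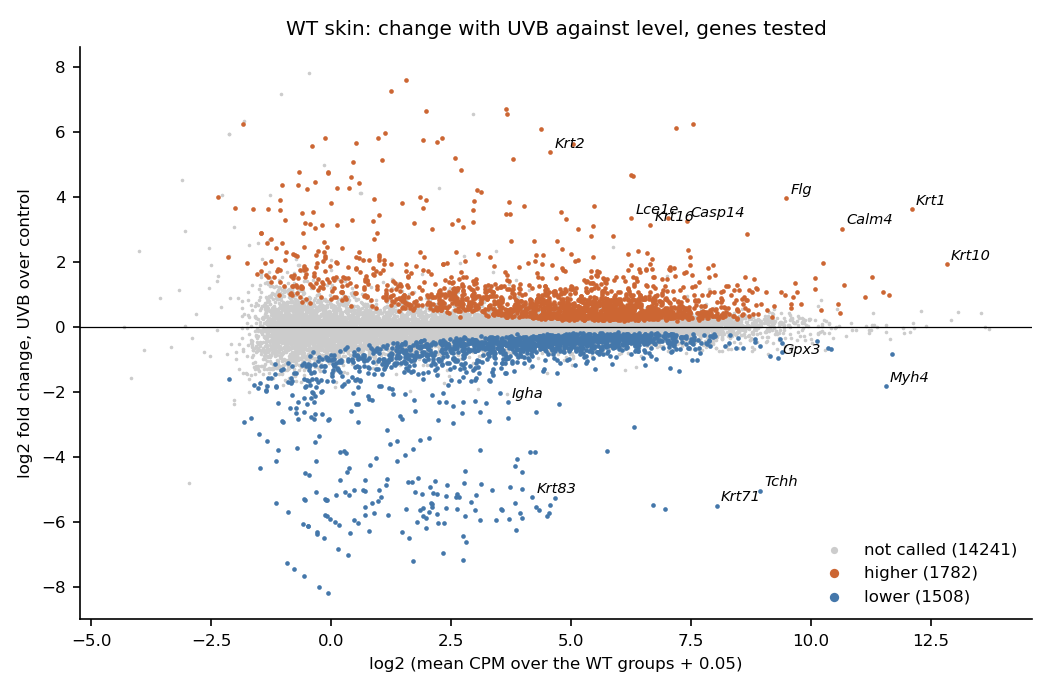
Each point is 1 of 17531 genes, with the mean level over the 8 WT libraries on the horizontal axis (log2 CPM after adding 0.05) and the log2 fold change of UVB over control on the vertical axis; 1782 genes called higher are orange, 1508 called lower are blue and the rest are grey. Suprabasal keratins and Calm4 sit at the upper right, and hair genes such as Krt71, Tchh and Krt83 form the cloud near -5.

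Genes of the outer epidermis rose after UVB. The epidermal differentiation complex, a gene cluster on chromosome 3 that encodes most proteins of the cornified envelope, had 57 tested genes between S100a1 and S100a10, of which 34 rose and 6 fell, with a median log2 fold change of 1.58 against -0.03 over all genes. Among late cornified envelope (Lce) genes and their neighbours, 20 of 23 rose and none fell, with a median of 2.32. In this and the other lists below given with none in one direction, no member reached an unadjusted p under 0.05 that way in edgeR's test, and DESeq2 and limma-voom called none, apart from the checkpoint list. Of the early envelope precursors (Sprr genes, involucrin and others), 9 of 16 rose and none fell, with a median of 1.78. Lce1e, a structural protein of the envelope, stood at 12.5, 12.9, 13.2 and 15.9 CPM in control libraries 1 to 4 and at 117, 137, 152 and 152 CPM in UVB libraries 1 to 4. The groups were far apart, with a log2 fold change of 3.36 ± 0.26 (standard error; adjusted p = 3.7e-06). Its neighbour Lce1h held 12.1, 13.3, 14.6 and 19.3 CPM in controls and 93.1, 99.2, 119.8 and 99.7 CPM after UVB, also without overlap (2.79 ± 0.21; adjusted p = 3.7e-06). Lce3c, of the Lce3 subgroup known from wounded and inflamed skin, rose from a mean of 0.298 to 11.6 CPM (5.21 ± 0.61; adjusted p = 5.2e-05). The envelope precursor Sprr1b rose by 5.61 on the log2 scale, and loricrin (Lor), already abundant in control skin, by 1.07. Lce and Sprr genes have close copies, so reads that fit several copies are missing from these counts and single members are uncertain.

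The sequences just upstream of Lce1e and Lce1h are shown because these 2 copies rose together. Each line gives the 120 bases before the start site in RefSeq's table for GRCm38.p6, Lce1e from chr3:92709075-92709194 and Lce1h from chr3:92765066-92765185, both on the minus strand. The word TATAAA, searched in them, lies in neither, so no base is in capitals.
Lce1e: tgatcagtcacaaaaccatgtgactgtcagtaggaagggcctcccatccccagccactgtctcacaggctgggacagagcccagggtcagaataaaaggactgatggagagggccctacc
Lce1h: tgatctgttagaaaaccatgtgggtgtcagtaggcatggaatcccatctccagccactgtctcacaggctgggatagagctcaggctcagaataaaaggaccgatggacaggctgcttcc
The 2 stretches share 101 of 120 bases (84.2%) without gaps.

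Most filaggrin-family genes and some of the enzymes that process them rose. Of 12 filaggrin-family and cornified-layer genes, 8 rose and 3 fell (median 0.99). Hornerin (Hrnr), a filaggrin-like protein, held 84.1, 92.3, 91.2 and 126 CPM in control skin and 508, 739, 947 and 655 CPM after UVB, with no overlap (2.85 ± 0.32; adjusted p = 4.3e-05). The 3 members that fell were trichohyalin (Tchh), its relative Tchhl1 and Crnn, a member named for completeness, with log2 fold changes of -5.04, -4.28 and -4.06. Among 17 transglutaminases and filaggrin-processing enzymes, 8 rose and 1 fell (median 0.29). Caspase-14 (Casp14), which cuts filaggrin during cornification, stood at 29.1, 28.3, 30.6 and 41.6 CPM in controls and at 209, 260.0, 413 and 350.2 CPM in UVB skin. Every UVB library was above every control (3.25 ± 0.33; adjusted p = 1.7e-05). Bleomycin hydrolase (Blmh), which takes filaggrin apart to free amino acids, and the retroviral-like protease Asprv1 rose by 1.90 and 1.95 on the log2 scale. Padi3, a deiminase of the hair sheath that also acts on filaggrin, was the member that fell (-4.94 ± 0.55; adjusted p = 4.0e-05). Histidase (Hal), which turns the histidine released from filaggrin into urocanate, an ultraviolet absorber, held 228, 251, 162 and 237 CPM in controls and 345, 479.6, 499 and 397 CPM after UVB (0.97 ± 0.19; adjusted p = 0.0024). Amdhd1, which acts further along histidine breakdown and was picked after its values were seen, fell (-2.12 ± 0.63; adjusted p = 0.029), a call lost in 6 of the 8 fits that left out 1 WT library; its change was -0.83 without control libraries 1 and 2.

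Of 15 basal and suprabasal keratins, 7 rose and 1 fell, with a median log2 fold change of 0.63. The one that fell, Krt15, is given with the bulge genes. Krt1, the type II keratin of suprabasal cells, stood at 597, 521, 800.2 and 712 CPM in control libraries and at 7075, 8310.4, 9447 and 7820.1 CPM in UVB libraries. That is a log2 fold change of 3.63 ± 0.40 (adjusted p = 3.2e-05), and the lowest UVB library lay above the highest control. Its partner Krt10 held 2726, 2604, 3539.7 and 3284 CPM in controls and 10337, 12050.4, 13549 and 10345 CPM after UVB, again without overlap (1.93 ± 0.30; adjusted p = 4.2e-04). Krt2, a keratin of the upper spinous and granular layers of thick epidermis, was barely present in control skin at 0.983, 0.248, 2.10 and 0.941 CPM and reached 64.5, 45.0, 46.3 and 29.5 CPM after UVB. Its change was 5.38 ± 0.53 (adjusted p = 1.4e-05) in WT skin and 2.13 in knockout skin, a difference that did not pass the test (adjusted p = 0.13). The basal keratins Krt14 and Krt5 rose by 1.54 ± 0.28 (adjusted p = 0.0016) and 0.98 ± 0.24 (adjusted p = 0.011). In a list of 20 basement membrane and hemidesmosome genes that includes these 2 keratins, they were the only members called, and the median was 0.02. Collagen XVII (Col17a1), which anchors basal cells, held 759.6, 549, 917 and 824 CPM in controls and 661, 906, 811 and 674 CPM in UVB skin, overlapping throughout (-0.00 ± 0.24; adjusted p = 1.0). Integrin alpha 6 (Itga6), chosen with Col17a1 after their values were seen, had a change of 0.24 ± 0.16 (adjusted p = 0.32).

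Keratins induced by wounding did not move as one. Krt16 stood at 16.7, 18.4, 19.1 and 28.8 CPM in control skin and at 157, 197, 219 and 149 CPM after UVB, without overlap (3.12 ± 0.61; adjusted p = 0.0028). Krt6b rose from a mean of 5.78 to 147 CPM (4.67 ± 1.03; adjusted p = 0.006). Krt6a and Krt17, followed up after their values were seen, did not pass the test, with changes of 0.90 ± 0.41 (adjusted p = 0.14) and -0.21 ± 0.20 (adjusted p = 0.48). Krt6a was called by limma-voom (adjusted p = 0.017) and by a fit of the WT groups alone (adjusted p = 0.00055). Krt6a and Krt6b are near-identical copies, so the division of reads between them is uncertain. Both Krt6a and Krt17 are made in the hair follicle as well.

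Adhesion genes and transcription factors of the differentiating layers rose in part. Of 30 desmosome, gap and tight junction genes, 9 rose and 1 fell (median 0.33), and 4 rose when control library 1 or UVB library 3 was left out, 5 without control library 2. Desmocollin 1 (Dsc1) and desmoglein 1b (Dsg1b), cadherins of the upper epidermis, rose by 1.52 and 1.41. Dsg4, the desmoglein of the hair shaft, was the member that fell (-3.96 ± 0.60; adjusted p = 3.8e-04). Among 32 epidermal transcription factors, 7 rose and 3 fell (median 0.15), and at least 6 rose with any 1 library left out, while 1 fell in the smallest of those fits. Grhl3, a regulator of barrier formation, held 36.7, 29.5, 36.7 and 39.4 CPM in controls and 59.0, 75.9, 93.9 and 62.8 CPM after UVB (1.03 ± 0.20; adjusted p = 0.0028). The calmodulin-like protein Calm4, which binds calcium in differentiating keratinocytes, rose from a mean of 351 to 2856 CPM (3.02 ± 0.27; adjusted p = 6.9e-06). Slurp1 and Slurp2, secreted ligands of nicotinic receptors on keratinocytes, rose by 3.00 ± 0.23 and 3.71 ± 0.29 (adjusted p = 3.7e-06 and 3.7e-06).

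**Figure D2:**
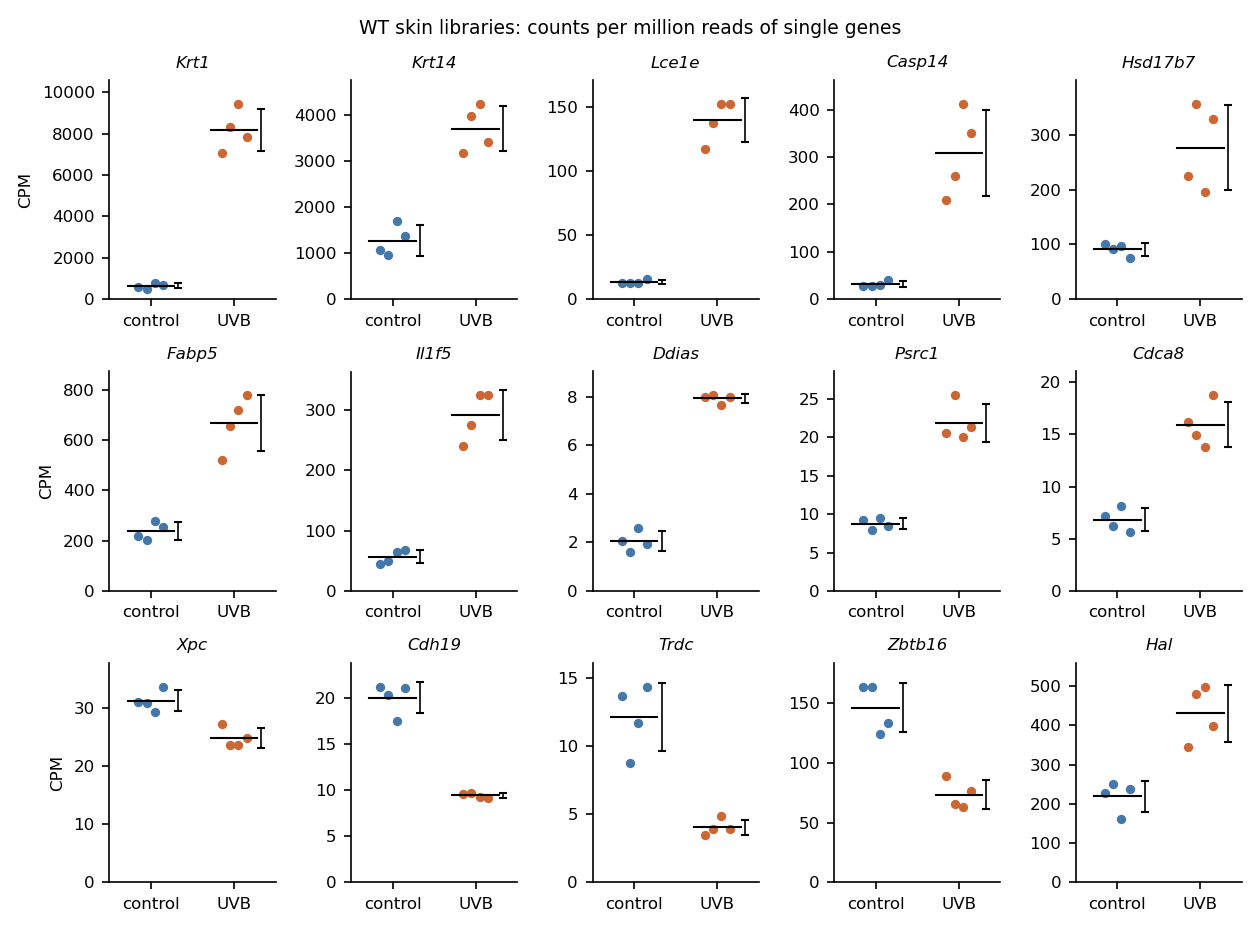
CPM in each WT library for 15 genes named in the text, with 4 control libraries in blue and 4 UVB libraries in orange on axes that start at 0; horizontal bars are group means and error bars the standard deviation. In all 15 panels the groups do not overlap: 11 genes from Krt1 to Cdca8 and Hal are higher after UVB, and Xpc, Cdh19, Trdc and Zbtb16 are lower. The 15 were picked from the 3290 called genes, of which 3017 had no overlap.

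Enzymes for the lipids of the barrier rose together. Of 29 barrier lipid genes, 23 rose and none fell (median 0.86), and of 25 cholesterol synthesis genes, 19 rose and none fell (median 0.73). Without control libraries 1 and 2 together, where 948 genes were called in all, 15 barrier lipid and 3 cholesterol genes rose. The medians were then 0.83 and 0.63. Ceramide synthase 3 (Cers3), which joins very long acyl chains to the ceramide base, held 18.2, 21.8, 21.2 and 27.8 CPM in controls and 47.4, 56.0, 71.6 and 54.6 CPM after UVB (1.37 ± 0.18; adjusted p = 1.3e-04). Pnpla1, which makes the acylceramides specific to skin, rose by 1.44. The cholesterol sulfotransferase Sult2b1 and the sphingomyelinase Smpd1 rose by 1.20 and 0.94. Hsd17b7, an enzyme of the late sterol pathway, stood at 102, 90.9, 96.5 and 74.8 CPM in controls and at 225, 357, 196 and 328 CPM in UVB skin. It showed the largest change of the named sterol genes, 1.60 ± 0.23 (adjusted p = 2.5e-04). Hmgcs1, near the start of the pathway, rose by 0.73 ± 0.18 (adjusted p = 0.012), and Ebp, Mvk and the sterol carrier Stard4 by 0.69, 0.71 and 1.09. Dhcr7, which turns 7-dehydrocholesterol into cholesterol and so competes with vitamin D formation in irradiated skin, rose by 0.60 ± 0.14 (adjusted p = 0.0083). Cyp27b1, which makes the active hormone, was low and did not pass the test (-0.67 ± 0.41; adjusted p = 0.27).

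The sebaceous and retinoid lists moved the same way in part. Of 29 sebaceous gland genes, 9 rose and 2 fell (median 0.47). Far1, which makes fatty alcohols for wax esters, rose by 0.80 ± 0.14 (adjusted p = 0.0013), and the elongase Elovl6 by 1.49 ± 0.32 (adjusted p = 0.0053). Fatty acid synthase (Fasn), which fat and gland share, was lower by a little (-0.68 ± 0.22; adjusted p = 0.042), and its call was lost in 7 of 8 fits that left out 1 WT library. Of 24 retinoid pathway genes, 8 rose and 1 fell (median 0.16). The retinol oxidisers Sdr16c5 and Rdh12 rose by 1.28 and 1.09, the binding protein Crabp1 by 1.49, and Fabp5, which carries fatty acids and retinoic acid, by 1.48. In control libraries Fabp5 stood at 218, 203, 279 and 254 CPM and in UVB libraries at 519, 655, 719.6 and 778 CPM, with no overlap (adjusted p = 2.3e-04). The glycerol and water channel Aqp3 rose by 1.79 ± 0.38 (adjusted p = 0.0045).

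Proteases that shed the cornified layer, and their inhibitors, rose without exception among the called members, 24 of 31 (median 1.54). The kallikreins lie in one cluster, and 7 of the 10 tested were higher. Klk9 stood at 9.34, 11.2, 10.4 and 13.7 CPM in control skin and at 46.9, 44.7, 64.8 and 54.0 CPM in UVB skin (2.24 ± 0.22; adjusted p = 1.5e-05). Klk5 and Klk8, which cut corneodesmosomes, rose by 1.54 ± 0.16 and 2.25 ± 0.26 (adjusted p = 2.1e-05 and 4.3e-05). Stefin A1 (Stfa1), an inhibitor of cysteine proteases, held 0, 0.434, 0.0874 and 0.448 CPM in controls and 13.5, 9.77, 33.7 and 41.8 CPM after UVB, a change of 6.71 ± 1.16 (adjusted p = 0.0012). The stefin copies are near-identical, so that value is uncertain.

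Members of the IL-1 and IL-36 families rose, and the interferon and NF-kB lists held few or no calls. Of 18 epidermal cytokine genes, 7 rose and 1 fell (median 0.88). Il1f5, the natural antagonist of the IL-36 receptor, stood at 44.5, 49.97, 63.8 and 67.5 CPM in controls and at 240.2, 276, 324 and 325 CPM after UVB. Its increase, 2.37 ± 0.20 (adjusted p = 5.8e-06), stood beside those of 3 agonists. Il1f9 rose by 2.07 ± 0.24 (adjusted p = 4.8e-05), Il1f8 by 3.33 ± 0.36 (adjusted p = 3.1e-05) and Il1f6 by 5.18 ± 0.61 (adjusted p = 6.6e-05). Il1f6 held 0.492, 0.682, 0.306 and 1.48 CPM in controls and 20.3, 17.3, 35.1 and 35.5 CPM after UVB. The member that fell was the decoy receptor Il1r2 (-0.71 ± 0.14; adjusted p = 0.0027). Of 16 antimicrobial and acute phase genes, 5 rose and 1 fell (median 0.48). Chil1, a chitinase-like protein, and beta-defensin 14 (Defb14) rose by 2.65 and 2.04, and S100a7a fell from 4.78, 7.32, 3.54 and 3.63 CPM to 0.554, 1.04, 0.388 and 0.667 CPM (-2.84 ± 0.55; adjusted p = 0.0024). None of 34 interferon-stimulated genes was called by edgeR's quasi-likelihood test (median -0.08), nor by any of the other tools run. Among 33 NF-kB targets and TNF family genes, 1 rose and 1 fell (median -0.05), and neither call was kept without control library 1 or without control library 2. Tnf itself held 2.46, 1.92, 1.79 and 1.88 CPM in control skin and 1.89, 1.66, 0.824 and 0.778 CPM after UVB, with overlap (adjusted p = 0.36). Il6 was under 1 CPM in every library (2.53 ± 1.14; adjusted p = 0.14, or 0.044 by limma-voom).

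**Figure D3:**
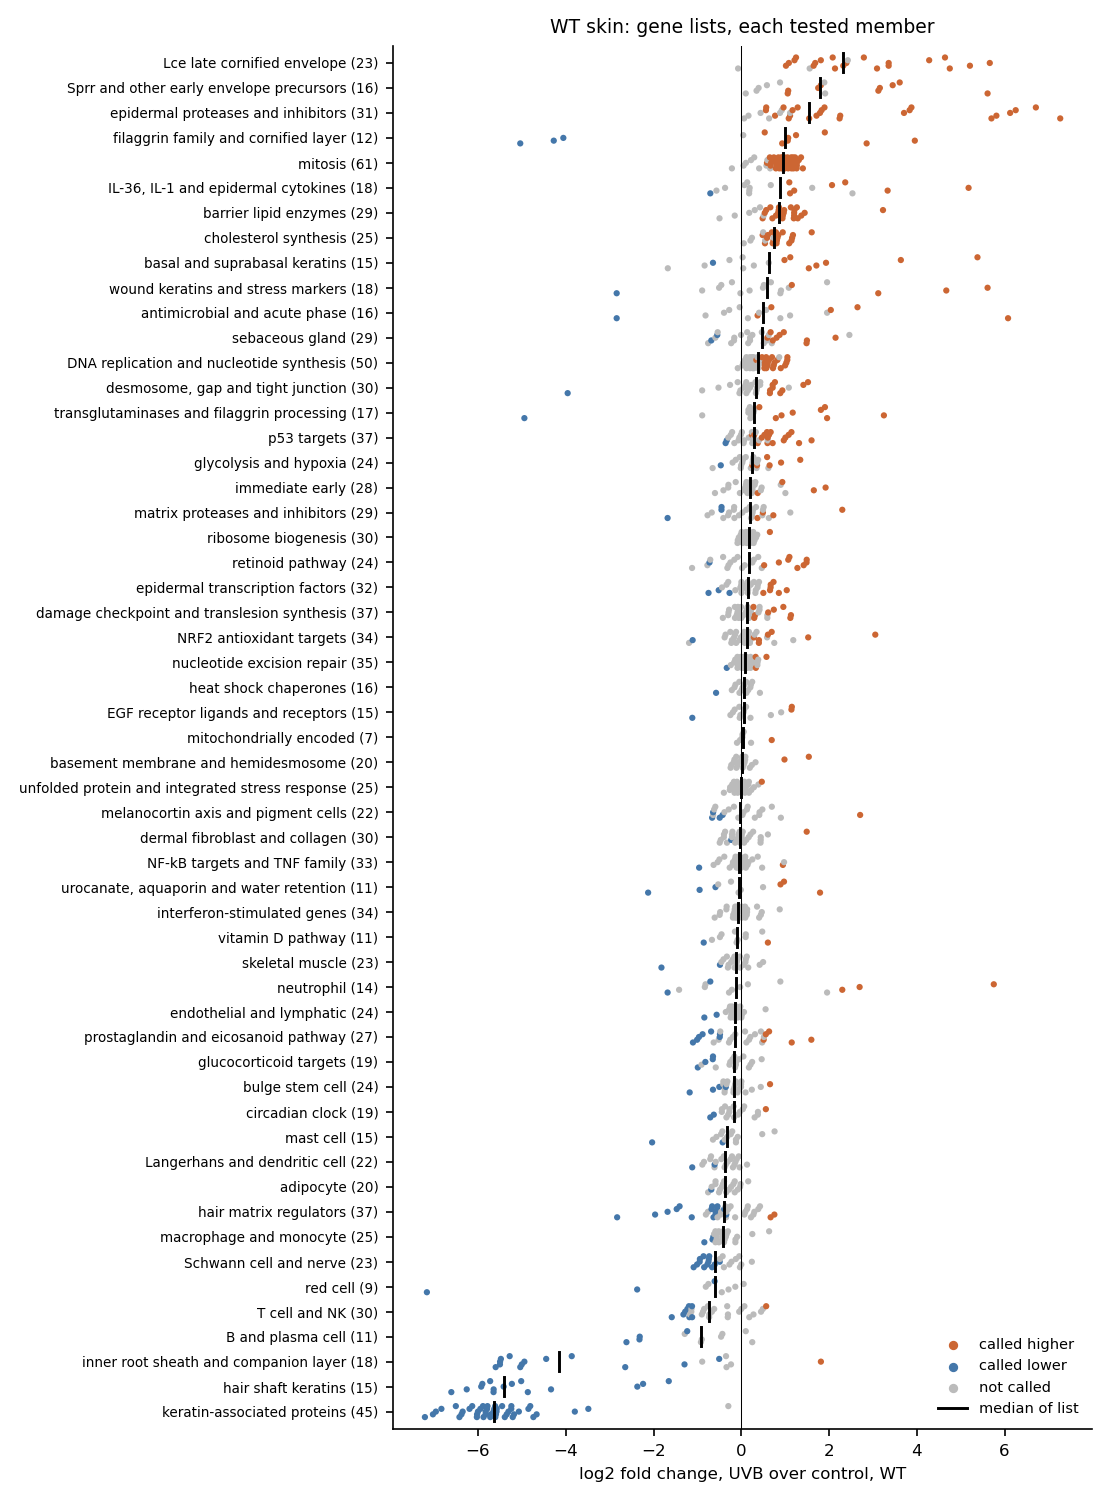
Each row is 1 of 55 gene lists with its number of tested genes in brackets, and each point is the log2 fold change of 1 member with UVB in WT skin, orange where called higher, blue where called lower and grey otherwise; black bars are medians. The Lce list lies highest with a median of 2.32 and the keratin-associated proteins lowest with a median of -5.65.

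The p53 list changed in selected members. Of 37 p53 targets, 17 rose and 2 fell (median 0.29), where 10.2% and 8.6% of all genes did. Between 12 and 15 rose with any 1 library left out. Xpc, a member given below with the repair genes, was 1 of the 2 that fell. Ddb2, also a member and given there, was lower without passing the test. The cell cycle inhibitor Cdkn1a held 138, 144, 159.8 and 168 CPM in controls and 313, 348, 317 and 311 CPM after UVB (1.08 ± 0.10; adjusted p = 6.9e-06). Psrc1, a spindle protein that p53 is known to regulate, held 9.25, 8.00, 9.44 and 8.42 CPM in controls and 20.5, 25.5, 20.02 and 21.4 CPM after UVB (1.31 ± 0.13; adjusted p = 1.2e-05). For both genes every UVB library lay above every control. The stress kinase Plk3 and the death-promoting Pmaip1 rose by 0.97 ± 0.10 and 1.14 ± 0.12 (adjusted p = 2.1e-05 and 2.2e-05). Mdm2, which degrades p53, rose by only 0.24 ± 0.07 (adjusted p = 0.036) and lost its call in 5 of the 8 fits without 1 library and under scaling by library totals. Ddias, which protects damaged cells from death and is no member of the list, held 2.06, 1.61, 2.58 and 1.93 CPM in controls and 7.98, 8.06, 7.66 and 8.00 CPM after UVB (1.94 ± 0.16; adjusted p = 5.1e-06).

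Nucleotide excision repair, the pathway that removes UVB lesions from DNA, changed little. Of 35 such genes, 3 rose and 1 fell, with a median of 0.09, and 6 rose when UVB library 1 was left out. Xpc, the sensor that opens repair across the genome, was the member that fell, from 31.0, 30.8, 29.3 and 33.6 CPM to 27.2, 23.6, 23.5 and 24.7 CPM. The groups did not overlap, though the change was small (-0.33 ± 0.07; adjusted p = 0.0045). Its partner Rad23b rose by 0.33 ± 0.07 (adjusted p = 0.0061) and the nuclease subunit Ercc1 by 0.57 ± 0.14 (adjusted p = 0.0089), the third being Elof1 at 0.33 ± 0.10 (adjusted p = 0.034). The call of Elof1 was lost in 5 of the 8 fits without 1 library and under scaling by library totals (adjusted p = 0.072). Ddb2, which finds cyclobutane dimers, did not pass the test (-0.24 ± 0.11; adjusted p = 0.14). Of 37 checkpoint and translesion synthesis genes, 8 rose and none fell (median 0.12, with 4 lower at an unadjusted p under 0.05), and 5 rose without control library 4 or without UVB library 4. Clspn and Fancd2, which act at stalled forks, rose by 1.13 and 0.74. The shares called either way were 11.4% of the repair list and 21.6% of the checkpoint list, against 18.8% of all genes tested.

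Genes of cell division rose. Of 61 mitosis genes, 52 rose and none fell, with a median of 0.96. Of 50 replication and nucleotide synthesis genes, 21 rose and none fell, with a median of 0.37, and 11 rose without control library 2 or without control library 4, 12 without UVB library 3. Without control libraries 1 and 2 together, 16 mitosis and 6 replication genes rose, with medians of 0.96 and 0.31. Summed over the mitosis list, control libraries held 829, 646, 908 and 618 CPM and UVB libraries 1251, 1232, 1289 and 1306 CPM. Cdca8, a subunit of the chromosomal passenger complex, stood at 7.15, 6.26, 8.17 and 5.69 CPM in controls and at 16.2, 14.9, 13.8 and 18.8 CPM after UVB (1.22 ± 0.20; adjusted p = 5.9e-04). Spc25, of the kinetochore, stood at 3.13, 2.79, 4.15 and 2.60 CPM in controls and at 7.89, 7.16, 8.48 and 9.11 CPM after UVB (1.36 ± 0.20; adjusted p = 3.0e-04). Neither gene had a UVB library within the range of the controls. Mki67, a marker of cycling cells, varied more among controls, at 94.4, 56.7, 93.9 and 48.8 CPM against 133, 144, 125 and 138 CPM after UVB (0.88 ± 0.25; adjusted p = 0.025), and its call was lost in 4 of the 8 fits without 1 library. Among genes of DNA synthesis, thymidine kinase (Tk1) rose by 1.05 ± 0.19 (adjusted p = 0.0016) and the ribonucleotide reductase subunits Rrm1 and Rrm2 by 0.74 ± 0.13 and 1.02 ± 0.11 (adjusted p = 0.001 and 2.2e-05). The helicase subunit Mcm5 rose by 0.57 ± 0.18 (adjusted p = 0.039), with overlapping groups and a call lost in 6 of the 8 fits.

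Promoter sequences are shown for 3 mitosis and 3 synthesis genes because many genes of these lists rose. Each line gives the 120 bases before the RefSeq start site in GRCm38.p6: Cdca8 from chr4:124936918-124937037 and Spc25 from chr2:69206214-69206333, both on the minus strand, and Anln from chr9:22389207-22389326, also on the minus strand, then Rrm1 from chr7:102441575-102441694 and Rrm2 from chr12:24708134-24708253, both on the plus strand, and Tk1 from chr11:117826015-117826134 on the minus strand. Capitals mark CCAAT on either strand (ATTGG where it lies on the other) and, in the synthesis genes, the E2F-like word TTCCCGC. In the mitosis genes TTTGAA was sought as well and lies in none of the stretches shown.
Cdca8: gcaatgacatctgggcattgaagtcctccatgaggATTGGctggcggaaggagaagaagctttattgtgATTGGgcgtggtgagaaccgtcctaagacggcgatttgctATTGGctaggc
Spc25: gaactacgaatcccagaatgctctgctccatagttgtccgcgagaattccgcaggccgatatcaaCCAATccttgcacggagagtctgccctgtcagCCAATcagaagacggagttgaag
Anln: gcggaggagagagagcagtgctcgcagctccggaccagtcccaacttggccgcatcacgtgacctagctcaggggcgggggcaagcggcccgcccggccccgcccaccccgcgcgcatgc
Rrm1: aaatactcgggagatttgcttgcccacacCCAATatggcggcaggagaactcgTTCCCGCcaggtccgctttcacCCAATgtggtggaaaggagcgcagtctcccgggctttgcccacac
Rrm2: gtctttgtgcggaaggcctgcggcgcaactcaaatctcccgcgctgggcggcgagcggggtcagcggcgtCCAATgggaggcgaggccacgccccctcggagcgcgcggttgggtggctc
Tk1: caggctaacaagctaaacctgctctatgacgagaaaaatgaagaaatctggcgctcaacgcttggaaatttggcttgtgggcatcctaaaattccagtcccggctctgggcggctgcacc
Cdca8 and Rrm1 carry 3 marked words each, Spc25 carries 2, Rrm2 carries 1, and Anln and Tk1 carry 0. A further mitosis gene, not shown, carries 1. In the 250 bases before the start site, searched on both strands, CCAAT was found in 37 of 53 promoters of mitosis genes (69.8%), in 28 of 48 promoters of replication genes (58.3%) and in 34.5% of the promoters of all tested genes. TTTGAA, the core of the cell cycle homology region, was found in 19 of the 53 mitosis promoters (35.8%), in 16.7% of the replication promoters and in 11.5% of all. It was also in 8 of 9 promoters of hair shaft keratins (88.9%) and 10 of 40 of keratin-associated genes (25%), which are lists that fell. An E2F-like word (TTCCCGC and its variants, which are TTCGCGC, then TTGCCGC, and lastly TTGGCGC) was found in 21 of the 48 replication promoters (43.8%), in 5 of the 53 mitosis promoters (9.43%) and in 12.3% of all. The table held promoters for 50 of 61 mitosis and 41 of 50 replication genes, some with more than 1 start. These are matches of letters, not sites of binding.

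Hair genes had the lowest medians of the 55 lists. All 15 hair shaft keratins fell, with a median log2 fold change of -5.42. Of 45 keratin-associated proteins, which fill the hair shaft between its keratins, 44 fell (median -5.65). Of 18 genes of the inner root sheath and companion layer, which mould the growing hair, 13 fell and 1 rose (median -4.16). The hair shaft keratins summed to 319, 413, 150 and 192 CPM in control libraries and to 5.31, 21.9, 5.91 and 5.94 CPM in UVB libraries. All UVB libraries lay far below the controls, and UVB library 2 was the highest of them. Without UVB library 2 the median of the hair shaft keratins was -6.38, and without control libraries 1 and 2, which held the most, it was -4.69, with 15 of 15 called in both cases. Krt33b stood at 17.7, 22.8, 6.64 and 7.89 CPM in controls and at 0, 0.474, 0.0485 and 0 CPM in UVB skin (-6.61 ± 0.75; adjusted p = 4.3e-05). Krt71, a keratin of the inner root sheath, held 657, 741, 281 and 376 CPM in controls and 0.692, 41.6, 0.339 and 2.44 CPM after UVB (-5.50 ± 1.10; adjusted p = 0.0034), and Krt25, of the same layer, changed by -5.60 ± 0.94 (adjusted p = 9.7e-04). Krtap17-1, a keratin-associated protein, held 5.81, 10.04, 4.94 and 5.33 CPM in controls and 0.461, 0.711, 0.775 and 0.333 CPM after UVB (-3.49 ± 0.30; adjusted p = 5.8e-06). The fitted changes of Krt83 and Krtap19-3 were -5.23 ± 0.55 and -6.96 ± 0.72, and 9 of the keratin-associated genes had 3 reads or fewer in the UVB group, so their fitted values are no bound. With those 9 set at the change that 3 reads over the group would give, the median of the list was -5.59. Although all skin was labelled telogen, the control libraries held transcripts of shaft and inner root sheath, which are made by growing follicles. Hair cycle stage was not measured here, and its part in these differences was not tested.

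**Figure D4:**
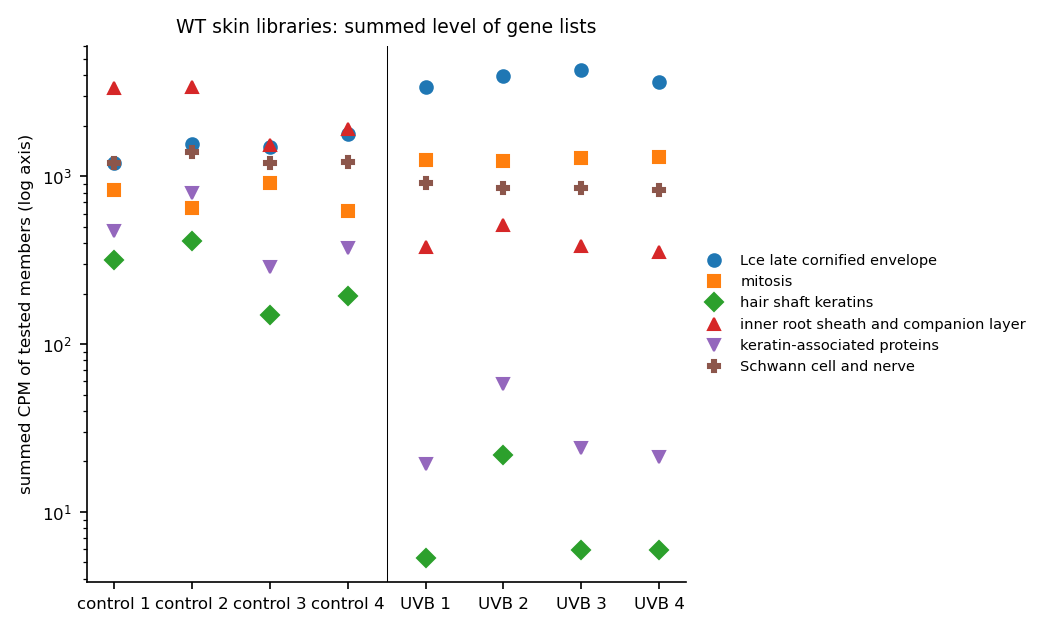
Summed CPM of the tested members of 6 gene lists in each WT library, on a log axis, with control libraries left of the vertical line and UVB libraries right of it. Hair shaft keratins range from 150 to 413 CPM in controls and from 5.31 to 21.9 CPM after UVB, with UVB library 2 highest, while the Lce and mitosis lists are higher in every UVB library than in any control.

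The sequences before Krtap17-1 and Krt33b are shown as examples of hair genes that carry the word TATAAA close to the start. Of 6 hair gene promoters read in this way, these were the 2 that held it within 120 bases. They are the 120 bases before the RefSeq start sites in GRCm38.p6, Krtap17-1 from chr11:99993995-99994114 and Krt33b from chr11:100029869-100029988, both on the minus strand, with the word TATAAA in capitals.
Krtap17-1: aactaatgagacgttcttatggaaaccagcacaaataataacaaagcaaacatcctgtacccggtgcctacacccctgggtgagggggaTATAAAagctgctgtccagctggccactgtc
Krt33b: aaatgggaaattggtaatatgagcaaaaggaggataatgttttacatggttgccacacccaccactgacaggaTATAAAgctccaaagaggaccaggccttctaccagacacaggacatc
TATAAA was found in the 250 bases before the start in 32 of 40 promoters of keratin-associated genes (80%), in 6 of 9 of hair shaft keratins (66.7%), in 4 of 20 of the Lce list (20%) and in 7.82% of the promoters of all tested genes.

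Regulators of the hair matrix also held more falls than rises. Of 37 such genes, 15 fell and 2 rose (median -0.39), and 9 fell when control library 1 was left out. Hoxc13, a driver of hair keratin genes, held 10.2, 10.1, 6.95 and 8.29 CPM in controls and 3.46, 5.41, 3.49 and 3.83 CPM after UVB, with no overlap (-1.13 ± 0.18; adjusted p = 4.6e-04). Lef1, which carries the Wnt signal in the matrix, and Msx2 fell by 1.41 and 1.47 on the log2 scale (adjusted p = 0.0017 and 0.0031). Sonic hedgehog (Shh) was near 1 CPM in controls and fell by 1.68 (adjusted p = 0.048), a call lost in 7 of the 8 fits without 1 library. In the list of 24 bulge stem cell genes, 4 fell and 1 rose (median -0.17), and 1 to 4 fell with any 1 library left out. That is 20.8% called either way, near the 18.8% of all genes tested. Sfrp1, a Wnt inhibitor of the bulge, stood at 142, 175, 91.5 and 109.9 CPM in controls and at 67.7, 46.6, 56.6 and 58.2 CPM after UVB (-1.18 ± 0.20; adjusted p = 7.6e-04). Krt15, a bulge and basal keratin, overlapped between groups (-0.65 ± 0.20; adjusted p = 0.034), and its call was lost in 6 of the 8 fits.

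Among genes of Schwann cells and of lymphocytes, more fell than rose. Of 23 Schwann cell and nerve genes, 13 fell and none rose (median -0.61). Cdh19, a cadherin of Schwann cells, held 21.2, 20.3, 17.5 and 21.1 CPM in controls and 9.55, 9.72, 9.31 and 9.11 CPM after UVB (-1.09 ± 0.14; adjusted p = 8.7e-05). Drp2, a gene of myelinating Schwann cells, fell by 0.85 on the log2 scale (adjusted p = 9.4e-04). Of 30 T cell and natural killer genes, 8 fell and 1 rose (median -0.75), and 5 fell without UVB library 2. Trdc, the constant part of the delta chain carried by the dendritic T cells of mouse epidermis, stood at 13.7, 8.80, 11.7 and 14.4 CPM in controls and at 3.51, 3.94, 4.85 and 3.89 CPM after UVB (-1.59 ± 0.20; adjusted p = 8.0e-05). The gamma chain gene Tcrg-C1 and the signalling kinase Zap70 fell by 1.32 and 1.28. Skint7, a member of the Skint family and chosen here after its values were seen, held 19.4, 17.6, 17.5 and 19.7 CPM in controls and 4.89, 3.98, 5.33 and 3.72 CPM after UVB (-2.05 ± 0.36; adjusted p = 0.0012). It was the one called among 11 tested Skint genes, and the other 10 did not pass the test. Of 11 B and plasma cell genes, 4 fell and none rose, among them the immunoglobulin A heavy chain Igha (-2.32 ± 0.47; adjusted p = 0.0034). Langerin (Cd207), the marker of Langerhans cells, overlapped between groups at 25.6, 18.8, 23.1 and 24.9 CPM and 25.0, 14.8, 14.7 and 16.3 CPM (adjusted p = 0.37). Of 22 Langerhans and dendritic cell genes 2 fell and none rose (median -0.37). That is 9.09%, near the 8.6% of all genes that fell, while 8 fell in a fit of the WT groups alone. In the neutrophil list 3 of 14 rose and 2 fell (median -0.12). Of the 3, Mpo was at 10.3, 13.4, 5.52 and 0.111 CPM in UVB libraries 1 to 4 and under 0.25 CPM in every control, so its call (adjusted p = 0.0054) does not hold for UVB library 4 and was lost under limma-voom (adjusted p = 0.21).

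The fibroblast, endothelial, muscle and adipocyte lists held few calls, unlike the Schwann cell list above. Of all tested genes 10.2% rose and 8.6% fell. Called either way were 6.67% of fibroblast, 8.33% of endothelial, 8.7% of muscle and 5% of adipocyte genes. Falls in these lists were thus near or below the share over all genes. Of 30 fibroblast and collagen genes 1 rose and 1 fell (median -0.04), of 24 endothelial and lymphatic genes 2 fell (median -0.14), of 23 skeletal muscle genes 2 fell (median -0.11), and of 20 adipocyte genes 1 fell (median -0.37). No endothelial, muscle or adipocyte call was kept when control library 1 was left out. In bulk tissue, fewer cells, less RNA per cell and a smaller share of the library cannot be told apart. Of 9 red cell genes 3 fell, and 1 of these was Hba-a2. It held 9.83, 19.8, 8.26 and 15.3 CPM in controls and 0.0461, 0.0474, 0.145 and 0.111 CPM after UVB (-7.17 ± 0.61; adjusted p = 6.3e-06). Its near-identical copy Hba-a1 overlapped at 41.3, 78.9, 40.2 and 67.9 CPM and 39.7, 26.8, 71.5 and 48.2 CPM (adjusted p = 0.53). Hba-a1 was picked after its values were seen. Reads that fit both copies are missing from these counts, so the division of reads between them is uncertain. The anion exchanger Slc4a1, another red cell gene, fell from a mean of 1.11 to 0.209 CPM (adjusted p = 0.0083).

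Signalling lists gave smaller and mixed changes. Called either way were 44.4% of prostaglandin, 21.1% of glucocorticoid target and 15.8% of clock genes, against 18.8% of all genes tested. The share of clock genes was thus below that of all genes. Of 27 prostaglandin and eicosanoid genes, 5 rose and 7 fell (median -0.14), and between 2 and 5 fell when any 1 library was left out. The epidermal phospholipases Pla2g4e and Pla2g2f rose by 1.59 ± 0.29 and 1.15 ± 0.18 (adjusted p = 0.0017 and 4.5e-04). Hpgds, the prostaglandin D synthase of immune cells, and Alox5, which starts leukotriene synthesis, fell by 0.88 and 0.49 (adjusted p = 4.8e-04 and 0.0016). The inducible cyclooxygenase Ptgs2 overlapped between groups at 1.65, 3.16, 1.62 and 1.93 CPM and 2.49, 1.80, 3.49 and 4.06 CPM (adjusted p = 0.40). Of 19 glucocorticoid targets, 4 fell and none rose (median -0.16). Zbtb16 held 164, 163, 124 and 134 CPM in controls and 89.4, 65.4, 63.1 and 76.3 CPM after UVB (-0.99 ± 0.20; adjusted p = 0.0036). Fkbp5, a chaperone induced through the glucocorticoid receptor, changed by -0.82 ± 0.19 (adjusted p = 0.007) in WT skin and by 0.77 in knockout skin, a difference that did not pass the test (adjusted p = 0.058). Of 19 clock genes 1 rose and 2 fell, Rora by 0.56 ± 0.14 and Per2 by -0.63 ± 0.17 (adjusted p = 0.013 and 0.021), with the call of Per2 lost in 5 of the 8 fits. Per1 did not pass the test (adjusted p = 0.34). The time of day of collection was not given in the sources used here.

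Stress lists differed from one another. Of all genes tested 18.8% were called either way. The shares were 23.5% of NRF2 targets and 22.7% of melanocortin and pigment cell genes. They were lower for immediate early (14.3%), heat shock (6.25%) and unfolded protein response genes (4%). Of 34 NRF2 antioxidant targets, 7 rose and 1 fell (median 0.12), and the fall was lost without control library 2 or 4 or UVB library 2 or 4. Sulfiredoxin (Srxn1) held 20.8, 25.2, 28.0 and 24.8 CPM in controls and 37.0, 39.2, 45.1 and 38.2 CPM after UVB (0.69 ± 0.13; adjusted p = 0.0022), and Gsta1 and the epithelial metallothionein Mt4 rose by 3.05 and 1.52. Gpx3, a secreted peroxidase, fell from a mean of 842 to 435 CPM (adjusted p = 0.0057). Of 28 immediate early genes 4 rose (median 0.20), and between 0 and 3 did with any 1 library left out. Fos stood at 12.1, 9.92, 5.59 and 10.3 CPM in controls and at 40.7, 8.49, 19.6 and 50.3 CPM after UVB. UVB library 2 lay within the controls, and the call (adjusted p = 0.028) was lost in 5 of the 8 fits. Of 25 unfolded protein response genes 1 rose (median 0.00), and of 16 heat shock chaperones 1 fell (median 0.05). Of 22 melanocortin and pigment cell genes, 4 fell and 1 rose (median -0.02), and 2 fell without control library 1, without UVB library 2 or without UVB library 3. Mitf, the main regulator of melanocytes, held 40.1, 42.7, 33.1 and 41.2 CPM in controls and 27.0, 30.5, 27.2 and 26.8 CPM after UVB (-0.49 ± 0.12; adjusted p = 0.0087). The melanocortin antagonist Agrp rose from traces to under 1 CPM (2.71 ± 0.60; adjusted p = 0.0061), but with unstranded counts its change was 0.82 and not called (adjusted p = 0.080).

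The same comparison in knockout skin set knockout UVB libraries against knockout controls. It came from the fit of all 16 libraries, so gene filter, scaling and estimate of spread were shared with WT skin. Of the 1782 genes called higher in WT skin, 1724 (96.7%) were also higher in knockout skin, where their median log2 fold change was 0.60 against 0.66 in WT. Of the 1508 called lower, 1400 (92.8%) were also lower, with medians of -0.44 in knockout and -0.60 in WT skin. These genes were chosen by their WT calls, which by itself enlarges the WT medians. The medians therefore do not show which genotype responded more. Over all 17531 genes the direction was shared for 73.9%. The difference between the UVB effects passed the test for 4 genes (0.0228% of those tested), all also called in WT: Tnik, Pinlyp, Angptl8 and Hba-a2. DESeq2 called 210 and limma-voom 438, and 2238 genes had an unadjusted p under 0.05. Without knockout UVB library 4 the count was 110, without knockout control library 1 it was 30, and without knockout control library 4 it was 2. Pinlyp, a secreted inhibitor of phospholipase, changed by -0.73 in WT and by 1.80 in knockout skin, a difference of 2.53 ± 0.31 (adjusted p = 0.0046). Its mean was 17.9 CPM in WT controls and 3.90 CPM in knockout controls, and 10.8 and 13.6 CPM after UVB. The secreted regulator of lipoprotein lipase Angptl8 changed by -3.76 and 0.94 (difference 4.69 ± 0.66; adjusted p = 0.011). Its mean was 6.05 CPM in WT controls and 0.437 CPM in knockout controls, and 0.434 and 0.866 CPM after UVB. For Pinlyp and Angptl8 the genotypes thus lay apart without UVB, a difference that was not tested here. The kinase Tnik fell by 0.23 in WT skin and changed by -0.97 in knockout skin (difference -0.74 ± 0.10; adjusted p = 0.011). Within WT skin alone the calls of Tnik and Pinlyp were lost in 7 and 6 of the 8 fits without 1 library.

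**Figure D5:**
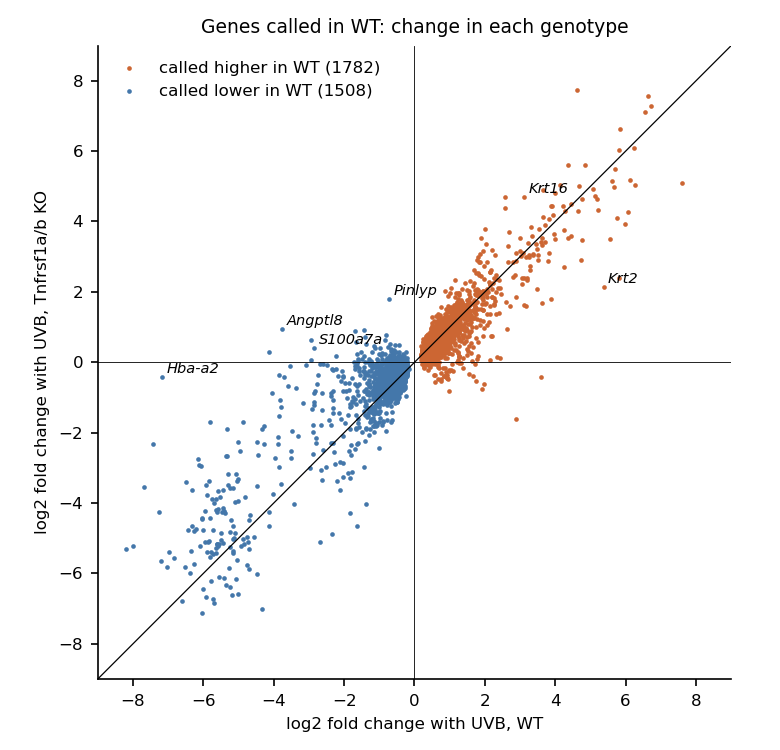
For the 3290 genes called in WT skin, the log2 fold change with UVB in WT skin (horizontal) and in Tnfrsf1a/b knockout skin (vertical), orange for the 1782 called higher and blue for the 1508 called lower in WT; the diagonal marks equal change. Most points share a direction, and Hba-a2, Angptl8 and Pinlyp are among the labelled genes off the diagonal.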

How the data were processed

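RNA from whole dorsal skin was enriched for poly-A and prepared with a directional kit, per the labels' protocols. The authors deposited raw read counts per gene for each library, made with STAR on GRCm39 per the submitters' processing notes; tool versions and the gene annotation were not given in the sources used here. Reverse-strand counts were used, since 95.7% of stranded gene reads fell there. Lines for unmapped, ambiguous and unassigned reads (10.7% to 19.5%, 1.18% to 1.36% and 7.25% to 10.2% of WT reads) were left out. The multimapping line was 0, so reads matching several copies are not counted. A combined table's 17 columns could not be matched to samples by name and were not used. Symbols matched 52083 of 55359 IDs, from GENCODE names of another build.

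Genes were tested with edgeR 4.0.16 in R 4.3.3 (filterByExpr, TMM, robust quasi-likelihood) over all 16 libraries in 4 groups, with Benjamini-Hochberg adjusted p over 17531 genes. Called, rose and fell mean an adjusted p under 0.05. Standard errors came from the fold change and F statistic, and values are TMM-scaled CPM. The fit was tested on simulated data. DESeq2 1.42.0, limma 3.58.1, other scalings and filters, unstranded counts, a replicate block, the WT groups alone and leaving out libraries were alternatives. Replicate pairs differed by 14.1 to 60.9 times counting noise (chi-square per degree of freedom), so none was a duplicate.

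The members and gene lists were chosen with earlier results of these data known, so list counts are descriptions. Named genes were called genes with a mean of at least 50 reads and no overlap of groups (the 12 largest changes and the 12 largest CPM differences each way, and the 12 smallest p), the 4 called members of each list with the smallest p, and a preset set of skin genes; Krt6a, Krt17, Col17a1, Itga6, Hba-a1, Crnn, Amdhd1, the Skint genes, Tnik, Pinlyp, Angptl8 and the families and genes under other observations were named after their values were seen. Promoters came from RefSeq's GRCm38.p6 table by symbol. Protein sequences were not used. Some genes that the rule names are not reported here.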

Additional observations from a re-analysis of the deposited data

Results flagged for a closer look

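In each group of 4 WT libraries, single libraries far from the other 3 were sought for the genes named in the text (Dixon's criterion at 95%). Chance alone meets this in about 1 of 20 groups. That rate is no yardstick here, because some genes were named after their values were seen and the hair genes are related. The criterion was met by 23 of 290 gene and group combinations. UVB library 2 accounted for 12 of these, most of them hair genes at levels nearer the controls. Tchh stood there at 82.1 CPM (others 10.3 to 12.4), Tchhl1 at 3.46 CPM (0.461 to 0.969), Padi3 at 2.04 CPM (0.323 to 0.500) and Dsg4 at 0.949 CPM (0.0923 to 0.194). Among the keratins, Krt33b stood at 0.474 CPM (0 to 0.0485), Krt83 at 2.47 CPM (0.323 to 0.556), Krt71 at 41.6 CPM (0.339 to 2.44) and Krt25 at 17.2 CPM (0.138 to 2.50), and Krtap19-3 at 0.285 CPM (0 in the others). The same library was high in Cdkn1a (348 CPM, others 311 to 317), Per1 (189 CPM, others 110.1 to 121) and Mitf (30.5 CPM, others 26.8 to 27.2).

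UVB library 3 accounted for 5. It held Skint3, Skint4 and Skint9 at 76.0, 19.2 and 41.3 CPM, against at most 0.138, 0.0556 and 0.111 CPM in the other UVB libraries, and the interferon-inducible Mndal at 13.4 CPM (others 2.37 to 2.94). Its level of the repair nuclease subunit Ercc1 was 39.2 CPM (others 32.1 to 32.5). Control library 3 was apart in 3 genes, with low levels of Mdm2 (50.7 CPM, others 53.7 to 54.2), Per1 (115 CPM, others 177 to 179.6) and Gabrp (6.69 CPM, others 10.22 to 10.9). The remaining values were Krtap17-1 at 10.04 CPM in control library 2 (others 4.94 to 5.81), Rora at 213 CPM in control library 4 (others 194 to 197) and Cd207 at 25.0 CPM in UVB library 1 (others 14.7 to 16.3).

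The UVB effect differed between knockout and WT skin in 4 genes by edgeR's test of the difference. On the log2 scale, knockout minus WT, it was 6.74 ± 0.74 for the globin Hba-a2 (adjusted p = 0.0025), 4.69 ± 0.66 for Angptl8 (adjusted p = 0.011), 2.53 ± 0.31 for Pinlyp (adjusted p = 0.0046) and -0.74 ± 0.10 for Tnik (adjusted p = 0.011).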

How the results depend on the processing

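Against 3290 genes called in WT skin, limma-voom called 5100 (2587 higher, 2513 lower), DESeq2 3856, the WT groups alone 4363, library totals 3744, DESeq2's size factors 3223, unstranded counts 3204, a mean of at least 100 reads 2651 and no filter beyond 1 read 2545. Leaving out 1 WT library gave 2039 (without control 1) to 3099 (without control 3), with 2147 without UVB library 3. Without control libraries 1 and 2 together, an alternative added after seeing the data, it was 948, of which 930 were among the 3290. Of the called genes, 2 changed direction with unstranded counts and none under the other settings. Between the genotypes, 4 genes differed with all libraries, 210 by DESeq2, 438 by limma-voom and 22 with no filter, and 2 (without knockout control 4) to 110 (without knockout UVB 4) with 1 library left out, 7 without WT control 3 or knockout UVB 1 and 30 without knockout control 1. Tnik was the gene lost without WT UVB library 2, 3 or 4. The cause was not tested.

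Replicate numbers are shared between groups, but same-numbered WT libraries did not deviate together (r = 0.08, -0.03, 0.12 and -0.05 across genes for numbers 1 to 4), and controls 1, 2 and 4 correlated better with another number. A fit with a replicate block called 2696 genes in WT skin, 2648 of them among the 3290, and 7 between the genotypes.

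Of 2581 values of 145 named genes under these alternatives, none reversed, 133 lost a call and 7 gained one. Calls were lost without at least 1 library in 13 of 129 called genes. Genes under a few CPM rest on few reads, and a difference missed there was not detectable at this depth.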

Other observations

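Several gene families not described above moved in WT skin. They were picked after their values were seen, and their counts are descriptions beside the 10.2% of all tested genes that rose and the 8.6% that fell. Of 5 tested carboxylesterase genes of the Ces2 cluster, which encode enzymes that hydrolyse esters, 4 rose (median log2 fold change 1.98). Ces2e held 0.447, 0.496, 0.787 and 0.224 CPM in controls and 6.69, 9.25, 5.09 and 8.28 CPM after UVB, without overlap (3.89 ± 0.33; adjusted p = 5.8e-06), and its change in knockout skin was 1.79 (adjusted p of the difference 0.10). Ces2f rose by 1.98. Of 7 gasdermins, proteins whose cut forms open pores in membranes, 3 rose. Gsdmc held 4.87, 2.91, 3.76 and 5.91 CPM in controls and 28.2, 35.3, 84.9 and 55.1 CPM after UVB (3.53 ± 0.45; adjusted p = 1.1e-04). Chromogranin A (Chga), a protein of secretory granules in endocrine cells, went from 0.0894, 0.310, 0.393 and 0.627 CPM to 4.01, 3.51, 7.22 and 5.83 CPM (3.82 ± 0.47; adjusted p = 7.3e-05), with no overlap.

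Receptor and channel genes held more falls. Of 6 tested subunits of the GABA receptor, 4 fell, among them Gabrp, from 10.9, 10.8, 6.69 and 10.2 CPM to 2.26, 3.27, 3.73 and 2.72 CPM (-1.68 ± 0.28; adjusted p = 7.8e-04). Of 65 potassium channel genes, 11 fell and 3 rose (median -0.35). The voltage-gated subunits Kcna1 and Kcna2, known from myelinated nerve, fell by 1.32 and 1.28 on the log2 scale (adjusted p = 5.3e-04 and 4.0e-04). Kcna2 stood at 35.3, 30.00, 27.7 and 29.5 CPM in controls and at 13.6, 14.1, 11.4 and 11.1 CPM after UVB, so that no UVB library reached the lowest control.

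The interferon-inducible Ifi200 family, a gene cluster on chromosome 1, had 14 tested genes, of which 8 fell in WT skin (median -0.96, and -0.12 in knockout skin). Mndal held 36.8, 25.2, 34.7 and 36.6 CPM in controls and 2.86, 2.37, 13.4 and 2.94 CPM after UVB (-2.62 ± 0.56; adjusted p = 0.0051). Its change in knockout skin was -0.87, and the difference did not pass the test (adjusted p = 0.34). Ifi206 held 4.74, 2.98, 4.11 and 4.08 CPM in controls and 0.369, 0.0474, 1.26 and 0.0556 CPM after UVB (-3.16 ± 0.72; adjusted p = 0.007). The same UVB library was the highest for Mndal and Ifi206. The other 6 genes were not called, among them Ifi202b, which was higher after UVB (1.17 ± 0.81; adjusted p = 0.34). Whether the animals differed in genotype at this cluster was not tested. The 14 genes include near copies, so single members are uncertain.

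In 13 genes every WT library lay either below 0.25 CPM or above 4 CPM, with both kinds present. Among these WT libraries, only Olah, an enzyme that releases fatty acids, and Hba-a2 followed the treatment. In knockout skin Hba-a2 did not. It held 19.5, 18.2, 14.3 and 21.2 CPM in knockout controls and 12.4, 26.9, 7.76 and 7.65 CPM after UVB. Olah was at most 0.146 CPM in knockout controls and between 2.73 and 17.4 CPM after UVB. The other 11 genes varied within a WT group. The 3 Skint genes were one such set. Skint3 stood at 37.4, 39.8, 35.3 and 42.5 CPM in controls and at 0.138, 0.0474, 76.0 and 0.0556 CPM in UVB libraries 1 to 4, and it was at 0.231 CPM in knockout UVB library 3 and between 32.4 and 84.0 CPM in the other knockout libraries. Skint4 stood at 21.1, 16.4, 22.6 and 21.6 CPM and 0.0461, 0.0474, 19.2 and 0.0556 CPM, and Skint9 at 21.8, 23.1, 26.5 and 28.0 CPM and 0, 0, 41.3 and 0.111 CPM, with the same libraries near 0. None of the 3 was called (adjusted p = 0.62, 0.22 and 0.52). Without UVB library 3 all were (adjusted p = 0.0024, 9.6e-04 and 0.0024), and limma-voom called Skint4 with all libraries (adjusted p = 0.033). Trim12a, at another locus, was at 0.0620 CPM in control library 2 and 0.0969 CPM in UVB library 3, while the other 6 WT libraries lay between 10.7 and 17.8 CPM. Whether the animals differed in genotype at these loci was not tested.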
